A study of Homo sapiens with 9 samples.

Results

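Ribosome-bound RNA was measured for 45 genes of the early secretory pathway in breast cancer cells grown as xenografts with or without human mesenchymal stem cells. The 45 genes were picked by symbol from the 21619 genes in the count tables: 8 of the signal recognition particle (SRP) and its receptor, 10 of the translocon, 5 of the signal peptidase, 6 of the oligosaccharyltransferase, 10 of the COPII coat and 6 of the COPI coat. Each symbol was found in every table, and 45 of the 45 passed the filter on low counts, which kept 13458 genes in all. The cells were MDA-MB-231, an established human breast cancer line, carrying the ribosomal protein L10a fused to EGFP. In 5 mice the cells had been injected into the mammary fat pad with bone marrow derived human mesenchymal stem cells (MSC) at a ratio of 1 to 1 (tumours 1, 6, 7, 10 and 15), and in 4 other mice they had been injected without MSC (tumours 9, 11, 12 and 13). Both groups carried EGFP-L10a and were taken 3 weeks after injection. Whole tumours were lysed, and beads coated with antibody to GFP captured the tagged polysomes. The labels give the tag to the cancer cells alone, and name neither the mouse strain nor the number of clones behind the tagged line.

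The gene counts came to 29749909 to 50639082 per tumour with MSC and to 24616792 to 65275226 per tumour without MSC. Levels are given as CPM, counts scaled to a common library size after a correction for composition. Markers of MDA-MB-231 cells were detected 7 of 7, at summed levels of 10500 to 16350 CPM with MSC and 9710 to 11060 CPM without MSC, and 2 of them, CD44 and AXL, were called higher (log2 change 0.61 and 0.53, edgeR adjusted p 0.00865 and 0.0137). Of 5 luminal markers, ESR1, PGR and FOXA1 reached at most 0.208, 0.0608 and 0.076 CPM. GATA3 had 3.73 to 5.40 CPM with MSC and 5.21 to 9.89 CPM without MSC, and ERBB2 had 21.4 to 36.2 CPM with MSC and 17.8 to 25.7 CPM without MSC. Fibroblast and MSC markers were detected 12 of 12, at 567 to 769 CPM in tumours with MSC and 491 to 634 CPM in tumours without MSC, most of it NT5E, and 1 of them, COL1A2, was called higher. Tumour 15 of the group with MSC stood apart in these genes, with DCN at 18.9 CPM against at most 0.207 CPM in any of the 8 other tumours, and COL3A1 at 21.2 CPM against at most 1.55 CPM. Leukocyte markers summed to 139 to 209 CPM with MSC and 95.9 to 138.5 CPM without MSC, nearly all of it CD68, which was called higher (log2 change 0.52, edgeR adjusted p 0.0371). CSF1R and LYZ were not called (log2 change 0.009 and -0.82, edgeR adjusted p 0.988 and 0.209). PTPRC had 3.58 CPM in tumour 1 with MSC and at most 0.54 CPM in any other tumour. CD3E and ITGAM reached at most 0.0857 and 0.131 CPM. Endothelial markers summed to 4.91 to 7.26 CPM with MSC and 8.33 to 10.8 CPM without MSC, most of it PECAM1. PECAM1 was called lower (log2 change -0.94, edgeR adjusted p 0.00745), and KDR was not called (log2 change -0.37, edgeR adjusted p 0.588). CDH5, TEK and VWF reached at most 0.143, 0.554 and 0.571 CPM, each highest in a tumour with MSC. The part of other cells' RNA in the results was not tested, and fewer cells of a kind cannot be told apart from less RNA per cell.

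Proteins bound for secretion, for membranes or for the endoplasmic reticulum (ER) are made on ribosomes that SRP brings to the ER membrane. There the SEC61 pore threads the growing chain across, the signal peptidase cuts off its signal peptide, and the oligosaccharyltransferase moves a preassembled sugar tree from a dolichol lipid onto asparagines. COPII coats then bud vesicles from the ER towards the Golgi, and COPI coats bring material back. Many genes of this pathway are targets of the unfolded protein response, whose factors XBP1 and ATF6 bind promoter elements that hold CCACG or ACGTGG.

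Promoter letters are shown first, because several members share an element. RefSeq promoters of build GRCh38.p14, running from 250 bases before a gene's start to 50 bases after it, were at hand for 39 of the 45 genes. The long ER stress response elements ERSE and ERSE-II, searched on both strands, were in 0 of the 39, against 0.0806% and 0.0549% of all 27305 promoters. With exact matches this rare over all promoters, 0 among 39 says little about the members. The shorter ACGTGG, on either strand, was in 19 of the 39 (48.7%), against 9.91% of all promoters and 12.8% of the 10474 promoters of tested genes. CCACG, which every ACGTGG match holds on its other strand, was in 30 of the 39 (76.9%), against 37.9% of all promoters and 49.9% of those of tested genes. ACGTGG lay in 6 of 9 COPII and 5 of 6 COPI promoters, in 4 of 9 of the translocon, 2 of 4 of the signal peptidase and 2 of 7 of SRP and its receptor, and in 0 of 4 of the oligosaccharyltransferase. The longer form TGACGTGG, searched after the shorter one had been seen, was in 7 of the 39, against 0.795% of all promoters. The 7 genes with it are shown as windows of 30 bases, with TGACGTGG or its reverse complement in capitals (of COPB2, which held more than 1 match, the window farther upstream):
SRP19, chr5:112861164-112861193, plus strand: aagtcttcatgCCACGTCAgagactagaga
SEC62, chr3:169966779-169966808, plus strand: ccctcctcgctCCACGTCAgagggaaccgg
SEC23A, chr14:39103221-39103250, minus strand: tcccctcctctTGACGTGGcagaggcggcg
SEC24A, chr5:134648595-134648624, plus strand: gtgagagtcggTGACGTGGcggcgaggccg
COPA, chr1:160343227-160343256, minus strand: gagagggtcgcTGACGTGGaggcgtccgaa
COPB1, chr11:14499841-14499870, minus strand: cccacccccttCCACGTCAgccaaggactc
COPB2, chr3:139389825-139389854, minus strand: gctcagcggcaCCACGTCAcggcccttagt

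The promoter of SEC31A, the coat gene with the clearest difference, is set beside that of DDOST, a glycosylation gene that changed the other way. Each line gives the 250 bases before the start. Capitals mark ACGTGG or its reverse complement in SEC31A, and CCACG in DDOST:
SEC31A, chr4:82900570-82900819, minus strand: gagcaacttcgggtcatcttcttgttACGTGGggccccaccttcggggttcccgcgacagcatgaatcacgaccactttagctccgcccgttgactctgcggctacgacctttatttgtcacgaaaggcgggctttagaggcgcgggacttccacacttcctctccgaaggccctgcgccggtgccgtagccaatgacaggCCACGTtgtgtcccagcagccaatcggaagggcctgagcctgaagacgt
DDOST, chr1:20661370-20661619, minus strand: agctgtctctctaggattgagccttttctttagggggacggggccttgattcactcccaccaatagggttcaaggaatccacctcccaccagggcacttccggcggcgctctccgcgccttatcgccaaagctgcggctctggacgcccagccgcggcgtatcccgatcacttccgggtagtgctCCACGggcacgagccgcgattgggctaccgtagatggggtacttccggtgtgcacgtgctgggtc
SEC31A held ACGTGG at 224 and 49 bases before its start, and DDOST held no ACGTGG. Both genes were picked by their measured changes, so the contrast is no test of the element. SEC61A1, called higher, and SRP72, with a negative change, held no ACGTGG either. TRAM1, also called higher, had no promoter at hand. A match is a run of letters and not a measured binding site. Of the 19 members with ACGTGG, 7 had a positive log2 change and the median change was -0.08, while of the 20 without it 10 had a positive change and the median was 0.03.

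The tumours with MSC were compared with those without for each gene by edgeR's quasi-likelihood test, with p adjusted over all 13458 genes and called at 0.05. Among the 45 genes, 3 were called higher with MSC (SEC61A1, TRAM1 and DDOST), against 4.18% of all tested genes, and 1 was called lower (SEC31A), against 3.6%. Either way, 7.78% of all tested genes were called. The members' share called higher, 6.67%, is near that background. The other 41 did not pass. Log2 changes, with MSC minus without, ranged from -0.40 to 0.60, 21 were positive and 24 negative, and their median was -0.011, against 0.0085 over all tested genes. Standard errors of the log2 changes lay between 0.09 and 0.18. In 3 of the 45 genes the values of the groups did not overlap: SEC61A1 and TRAM1 were higher in each tumour with MSC, against 5.13% of all tested genes, and SEC31A was lower in each, against 4.87%. The 45 genes together took 0.669% of gene counts with MSC and 0.672% without MSC.

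**Figure D1:**
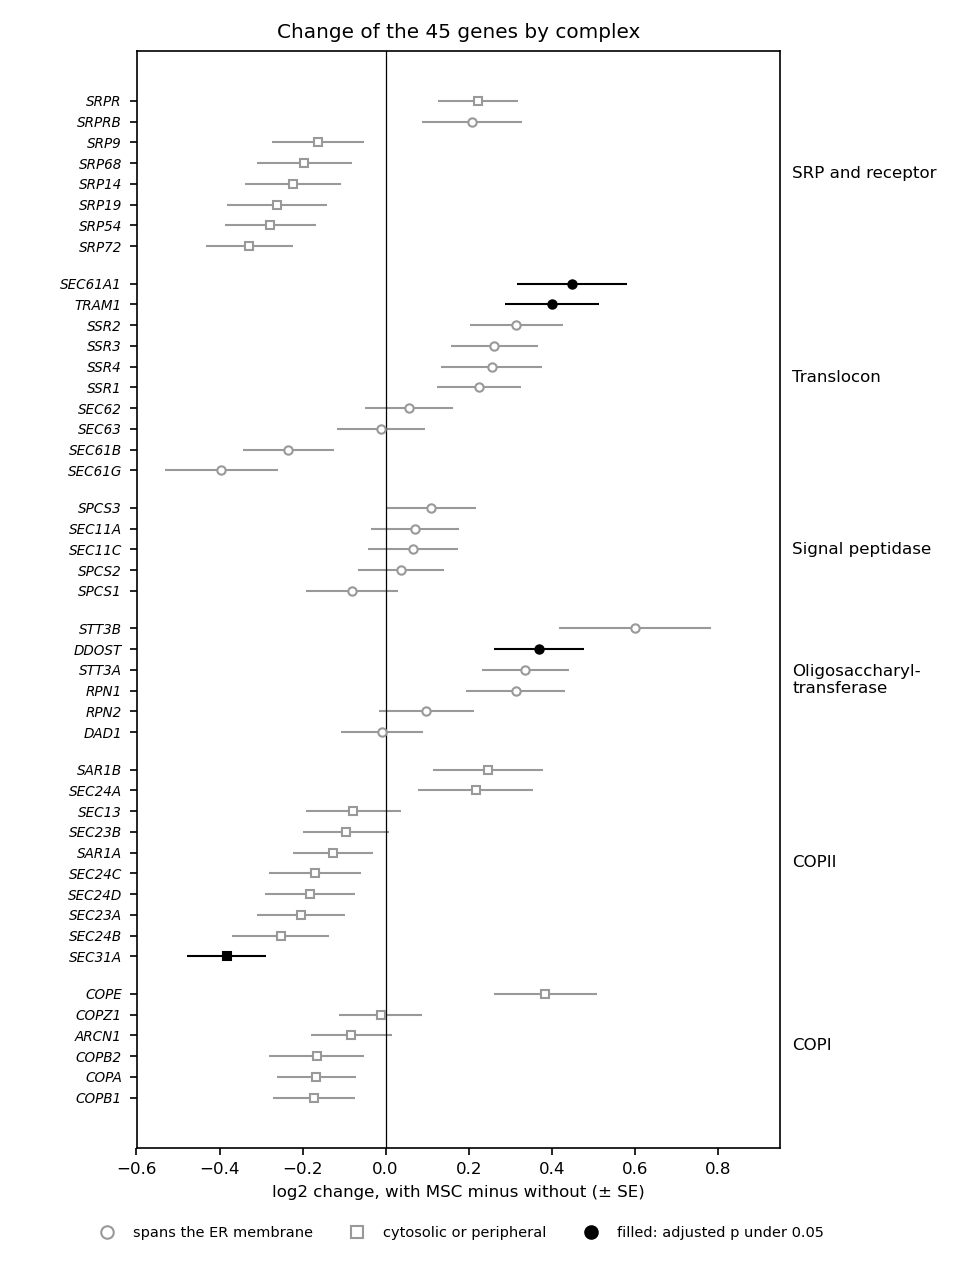
Log2 change, with MSC minus without MSC, of each of the 45 genes, grouped by complex. Points are edgeR estimates, bars are ± SE, circles are proteins that span the ER membrane, squares are cytosolic or peripheral ones, and filled symbols mark the 4 called genes. Most of the SRP particle and coat genes lie below 0 and most of the translocon and oligosaccharyltransferase genes above 0.

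The complexes lay on different sides of 0. The median log2 change was 0.32 in the oligosaccharyltransferase (5 of 6 positive) and 0.24 in the translocon (7 of 10 positive). It was 0.07 in the signal peptidase (4 of 5 positive), -0.12 in COPI (1 of 6), -0.15 in COPII (2 of 10) and -0.21 in SRP with its receptor (2 of 8). Under every alternative way of processing that was run, each of these medians kept its sign except that of the signal peptidase, which ranged from -0.004 to 0.09. Sorting the members by the place of their protein, a grouping made after the values were seen and so given with no test, gave 22 proteins that span the ER membrane and 23 that are cytosolic or bound to its surface. Of the 22, 17 had positive changes, with a median of 0.16, and the 5 negative ones were SEC61B, SEC61G, SEC63, SPCS1 and DAD1. Of the 23, 4 had positive changes (SRPR, SEC24A, SAR1B and COPE), and the median was -0.17. Over the alternatives, 15 to 19 of the 22 and 4 to 5 of the 23 were positive.

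No gene of SRP or its receptor passed the test. The 6 proteins of the particle had log2 changes below 0, from -0.33 to -0.16, and the 2 receptor genes had changes above 0. SRP72, which with SRP68 forms the large scaffold pair of the particle, had 124, 136, 149, 131.5 and 121 CPM in tumours 1, 6, 7, 10 and 15 with MSC, against 179.7, 168, 177 and 139 CPM in tumours 9, 11, 12 and 13 without MSC. Only tumour 13 without MSC lay within the range of the group with MSC. Its means were 132 ± 10.99 CPM with MSC and 166 ± 18.4 CPM without MSC (SD, n = 5 and 4), a log2 change of -0.33 ± 0.10 (SE) with an edgeR adjusted p of 0.0569. Of the 9 fits that left out 1 tumour it passed in 1, without tumour 13 (0.0147), and the other 8 gave 0.0574 to 0.176. SRP54, the GTPase that binds the signal sequence, had 37.7 to 49.1 CPM with MSC and 46.0 to 54.7 CPM without MSC, with a log2 change of -0.28 and an edgeR adjusted p of 0.12. Tumour 7 was the single tumour with MSC inside the other group's range.

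SRP9 and SRP14, the pair that pauses elongation, had the highest levels per length of the particle's genes. SRP9 averaged 467 ± 23.1 CPM with MSC and 522 ± 73.3 CPM without MSC, where tumour 9 alone reached 625 CPM. Its edgeR adjusted p of 0.385 was the largest of the complex. SRP14 averaged 434.5 ± 59.0 CPM with MSC and 507 ± 33.4 CPM without MSC. The annotation lists 4 pseudogenes of SRP14. Reads that match a pseudogene as well could be set aside as not uniquely aligned, or be counted for the wrong gene. SRPR, the receptor's alpha subunit, averaged 141 ± 5.85 CPM with MSC and 120.5 ± 10.5 CPM without MSC (log2 change 0.22, edgeR adjusted p 0.158). SRPRB, which anchors the receptor in the membrane, averaged 52.7 ± 8.73 CPM with MSC and 45.6 ± 3.33 CPM without MSC, with overlapping groups.

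In the translocon, 2 of 10 genes were called higher with MSC and none lower, against 4.18% and 3.6% of all tested genes. These counts are a description, with no test over the complex. SEC61A1 encodes the pore itself. It had 144, 177, 141, 151 and 178 CPM in tumours 1, 6, 7, 10 and 15 with MSC, against 88.6, 138.3, 99.3 and 138.2 CPM in tumours 9, 11, 12 and 13 without MSC. The groups did not overlap, but tumours 11 and 13 lay just below the lowest tumour with MSC, and tumours 9 and 12 far below. The means were 158 ± 18.1 CPM with MSC and 116 ± 26.0 CPM without MSC, a 1.36-fold difference (log2 change 0.45 ± 0.13 SE, edgeR adjusted p 0.0434). TRAM1, a membrane protein that contacts the chain as it enters, had 123, 124, 140.4, 138 and 130.5 CPM in the tumours with MSC, against 108, 93.6, 78.6 and 117 CPM in those without MSC. Each tumour with MSC was above each without. Its means were 131 ± 8.05 CPM with MSC and 99.2 ± 16.8 CPM without MSC (log2 change 0.40 ± 0.11 SE, edgeR adjusted p 0.0362).

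Both translocon calls sat near the threshold. SEC61A1 passed without tumour 11 (0.0337) or 13 (0.014), and did not pass without tumour 1, 6, 7, 10, 15, 9 or 12 (edgeR adjusted p 0.0786, 0.1, 0.0603, 0.0752, 0.0954, 0.14 and 0.173). TRAM1 passed without tumour 13 (0.00915) and in no other fit that left out a tumour (0.0541 to 0.159, the largest without tumour 12). With offsets for GC content and length SEC61A1 also lost its call (log2 change 0.33, adjusted p 0.0809) and TRAM1 kept it (adjusted p 0.0112). SEC61A1 lost it too with limma-voom (0.0683), library size scaling (0.0642) and robust=FALSE in edgeR (0.051), and TRAM1 with library size scaling (0.0579). Without tumour 15, which carried the fibroblast markers, the log2 changes were 0.40 for both SEC61A1 and TRAM1. An exon of SEC61A1 overlaps RUVBL1 on the other strand, and whether counting used strand is not given in the sources used here.

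The small subunits of the pore, which cross the membrane a single time, did not follow SEC61A1. SEC61G had 328, 379, 334, 351 and 256 CPM with MSC, against 425, 473, 521 and 316 CPM without MSC. Tumour 13 without MSC was again the tumour inside the other group's range. Its means were 330 ± 45.4 CPM with MSC and 434 ± 87.9 CPM without MSC (log2 change -0.40 ± 0.14 SE, edgeR adjusted p 0.0752). It passed in 1 of the 9 fits that left out 1 tumour, without tumour 13 (0.0101), and the other 8 gave 0.0704 to 0.292. Without tumour 12 the log2 change was -0.30, and without tumours 15 and 12 it was -0.22. SEC61B averaged 193 ± 26.1 CPM with MSC and 227 ± 12.1 CPM without MSC (log2 change -0.23, edgeR adjusted p 0.191). The 4 subunits of the translocon-associated protein complex, SSR1, SSR2, SSR3 and SSR4, had log2 changes of 0.22, 0.32, 0.26 and 0.26, none of them called (edgeR adjusted p 0.0861 to 0.199). SSR2 came nearest, with 211 to 281 CPM with MSC and 170 to 229 CPM without MSC. SEC63, which recruits the luminal chaperone BiP to the pore, averaged 60.4 ± 5.58 CPM with MSC and 60.9 ± 5.72 CPM without MSC, the smallest difference of the complex, and its partner SEC62 averaged 85.1 ± 5.13 CPM with MSC and 81.9 ± 10.9 CPM without MSC.

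The 5 signal peptidase genes showed no called difference, with log2 changes from -0.08 to 0.11 and edgeR adjusted p from 0.574 to 0.862. SPCS3, a subunit the enzyme needs, averaged 119.5 ± 14.1 CPM with MSC and 111 ± 10.9 CPM without MSC. The accessory subunits SPCS1 and SPCS2 averaged 194 ± 21.7 and 53.9 ± 5.34 CPM with MSC, against 205.5 ± 23.5 and 52.5 ± 2.43 CPM without MSC. The catalytic SEC11A averaged 181 ± 20 CPM with MSC and 172 ± 13.7 CPM without MSC. Its alternative SEC11C averaged 50.1 ± 5.72 CPM with MSC and 47.8 ± 2.70 CPM without MSC. With standard errors of about 0.11, changes of this size were not detectable with these tumours.

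In the oligosaccharyltransferase, DDOST rose and its catalytic subunits came close to the threshold. DDOST, a structural subunit also called OST48, had 179.7, 202, 193, 184 and 165 CPM in tumours 1, 6, 7, 10 and 15 with MSC, against 119, 144, 143 and 167 CPM in tumours 9, 11, 12 and 13 without MSC. Tumour 13 lay just above tumour 15, and the other tumours kept to their group's side. The means were 185 ± 14.01 CPM with MSC and 143 ± 19.4 CPM without MSC, a 1.29-fold difference (log2 change 0.37 ± 0.11 SE, edgeR adjusted p 0.042). The call held without tumour 15 (0.0386) or 13 (0.0112) and was lost without tumour 1, 6, 7, 10, 9, 11 or 12 (0.0878, 0.0994, 0.0883, 0.0873, 0.131, 0.0756 and 0.131). It was also lost with offsets for GC content and length (log2 change 0.30, adjusted p 0.0775) and with limma-voom (adjusted p 0.0508).

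STT3A, the catalytic subunit that works as the chain enters the ER, had 84.2, 95.4, 90.8, 99.8 and 93.7 CPM with MSC, against 64.2, 69.5, 75.3 and 84.8 CPM without MSC. Its log2 change of 0.34 ± 0.10 (SE) had an edgeR adjusted p of 0.0519, and tumour 13 alone overlapped the group with MSC. STT3B, which also glycosylates sites that STT3A skipped, had 41.0, 31.0, 35.4, 45.5 and 44.8 CPM with MSC, against 26.3, 17.5, 21.5 and 38.7 CPM without MSC. Its log2 change of 0.60 ± 0.18 (SE) was the highest of the 45 but missed the threshold, with an edgeR adjusted p of 0.0525. Of the 9 fits that left out 1 tumour, STT3A passed in 1, without tumour 13 (0.0155), and the others gave 0.0752 to 0.145. STT3B passed in 2, without tumour 13 (0.00192, log2 change 0.86) or 6 (0.0426), and the others gave 0.0636 to 0.17, with a log2 change of 0.45 without tumour 11. RPN1 (ribophorin I) averaged 156 ± 18.9 CPM with MSC and 126 ± 21.0 CPM without MSC (log2 change 0.31, edgeR adjusted p 0.109). RPN2 and the small subunit DAD1 had log2 changes of 0.10 and -0.009, with overlapping groups. Summed over the 6 genes, levels were 873.5 to 1011 CPM with MSC and 700.6 to 872.2 CPM without MSC, groups that met but did not overlap.

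**Figure D2:**
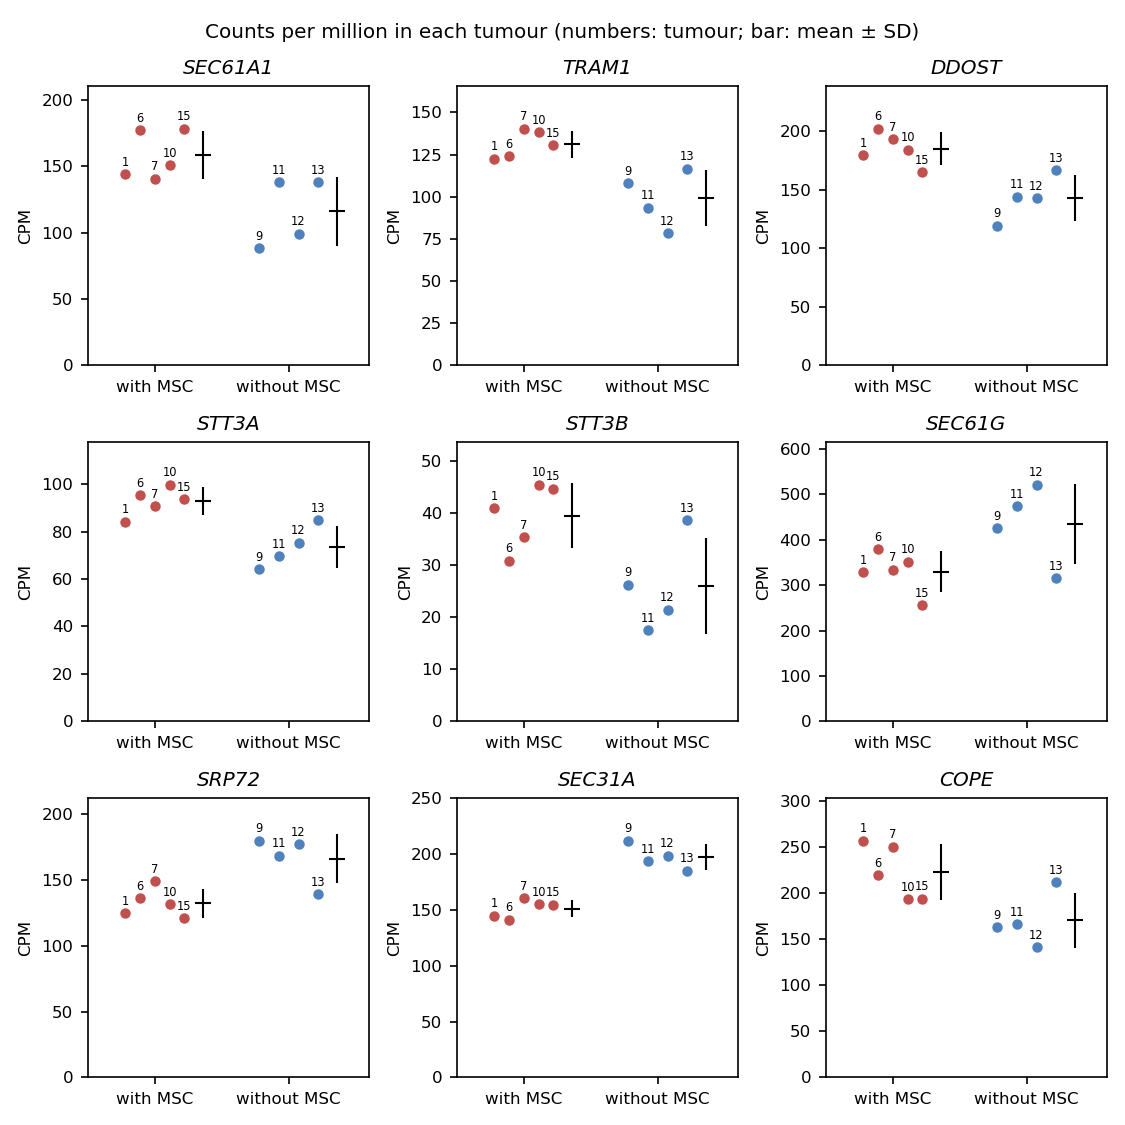
CPM in each tumour for 9 members, tumours with MSC left of tumours without MSC. Numbered points are tumours and bars are group means ± SD. SEC61A1, TRAM1 and SEC31A have groups that do not overlap, and in DDOST 1 tumour without MSC, tumour 13, reaches into the group with MSC.

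SEC31A fell with MSC, and was the member with the smallest p. It forms, with SEC13, the outer cage of the COPII coat. It had 145, 141, 160.4, 155 and 155 CPM in tumours 1, 6, 7, 10 and 15 with MSC, against 212, 193, 198 and 185 CPM in tumours 9, 11, 12 and 13 without MSC. Each tumour with MSC was below each without, tumour 13 included. The means were 151 ± 7.92 CPM with MSC and 197 ± 11.3 CPM without MSC, a ratio of 0.767 (log2 change -0.38 ± 0.09 SE, edgeR adjusted p 0.0199). The call was lost without tumour 1 (0.0575), 9 (0.0647) or 12 (0.0655) and held without any other tumour, tumour 15 included (0.0249). Exons of SEC31A overlap those of THAP9 on the other strand.

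The other 9 COPII genes did not pass. SEC13 averaged 188 ± 20.02 CPM with MSC and 199 ± 30.1 CPM without MSC, a log2 change of -0.08 with an edgeR adjusted p of 0.72. SEC23A and SEC23B, the inner coat proteins that switch on the GTPase activity of SAR1, had log2 changes of -0.20 and -0.10. Of the 4 cargo adaptors, SEC24B, SEC24C and SEC24D had changes of -0.25, -0.17 and -0.18 and SEC24A one of 0.22, with edgeR adjusted p from 0.185 to 0.357. SAR1A and SAR1B, the small GTPases that start coat assembly, had changes of -0.13 and 0.25. Summed over the 10 genes, COPII levels were 812 to 894 CPM with MSC and 881 to 998 CPM without MSC, with overlap at tumours 6 and 7 with MSC and 13 without MSC.

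In COPI, 5 of 6 genes had log2 changes between -0.17 and -0.011 and none passed. COPE, the epsilon subunit, was the exception in direction, with 257, 219.5, 250.3, 194 and 194 CPM with MSC, against 163, 167, 141 and 212 CPM without MSC. Tumour 13 lay above tumours 10 and 15. The log2 change was 0.38 ± 0.12 (SE) with an edgeR adjusted p of 0.0608. It passed in 1 of the 9 fits that left out 1 tumour, without tumour 13 (0.0102), and the other 8 gave 0.0522 to 0.24. With offsets for GC content and length the change was 0.20 (adjusted p 0.291). COPE had the highest GC content of the 45 reference transcripts, 62.9%. Over the 12875 tested genes with a reference transcript, log2 change and GC content had a Spearman correlation of 0.30. Over the 45 members it was 0.15. The cause of this trend was not tested. COPA, the alpha subunit, averaged 83.4 ± 4.65 CPM with MSC and 93.7 ± 4.56 CPM without MSC (log2 change -0.17, edgeR adjusted p 0.287). COPB1 and COPB2 had the same log2 change of -0.17. COPZ1, the zeta subunit, averaged 177 ± 15.4 CPM with MSC and 178.5 ± 10.95 CPM without MSC.

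Tumour 13 recurs above. Of the 4 tumours without MSC, it had the highest value in 13 of the 21 genes with a positive change. It had the lowest value in 13 of the 24 genes with a negative change. For tumour 11 these numbers were 5 and 9, for tumour 9 they were 1 and 2, and for tumour 12 they were 2 and 0. With tumour 13 left out, 7 members were called higher and 3 lower, while over all genes calls also went up, to 985 higher and 863 lower. With tumour 1, 9 or 12 left out, 0 of the 45 were called by edgeR. Over all genes those fits called 260, 175 and 151 higher and 191, 138 and 94 lower. The labels give no batch or other property that sets tumour 13 apart.

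**Figure D3:**
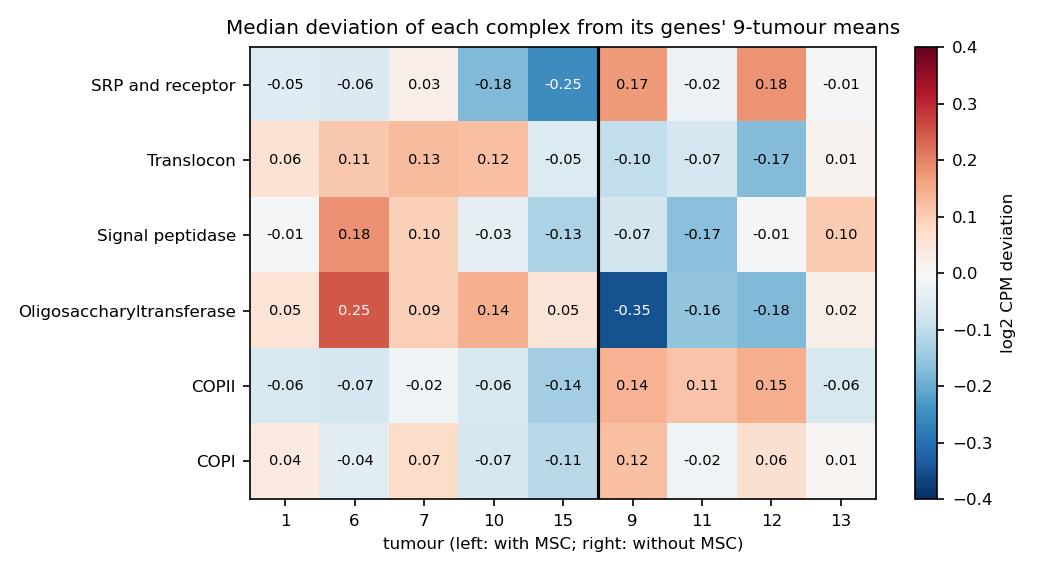
Median deviation of the genes of each complex from their mean over all tumours, in log2 CPM, for each tumour, tumours with MSC left of those without MSC. In the oligosaccharyltransferase row the tumours with MSC lie between 0.05 and 0.25 and those without MSC between -0.35 and 0.02, and in the COPII row between -0.14 and -0.02 with MSC and between -0.06 and 0.15 without MSC.

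Within the groups, the oligosaccharyltransferase genes also varied together. After group means were taken out, the median Pearson correlation over 9 tumours between 2 of its genes was 0.46, and with genes of the other complexes it was -0.009. Within the other complexes the medians were 0.004 to 0.22. These correlations share libraries and are a description.

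Paralogs allow a comparison within a tumour that needs no scaling between libraries. The log2 ratio of SEC24B to SEC24A counts was 0.45, 0.58, 0.30, 0.62 and 0.54 in tumours 1, 6, 7, 10 and 15 with MSC, against 0.91, 1.09, 1.09 and 0.81 in tumours 9, 11, 12 and 13 without MSC. The groups did not overlap. The mean was 0.50 ± 0.13 with MSC and 0.97 ± 0.14 without MSC, a difference of -0.47, with an exact two-sided permutation p of 0.0159, the smallest that 5 against 4 tumours can give, and 0.0952 after adjustment over the 6 pairs compared, so it did not pass. Neither gene alone was called.

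For the other pairs the groups overlapped. SAR1B to SAR1A averaged -1.97 ± 0.13 with MSC and -2.38 ± 0.39 without MSC (exact permutation p 0.0794, adjusted 0.238). STT3A to STT3B averaged 1.24 ± 0.25 with MSC and 1.56 ± 0.41 without MSC (exact permutation p 0.206, adjusted 0.413). The differences were 0.10 for SEC23B to SEC23A, -0.02 for SEC24D to SEC24C and -0.005 for SEC11C to SEC11A, with adjusted exact permutation p of 0.429, 0.984 and 0.984. SEC24A and SAR1B lie next to each other on chromosome 5, and their exons overlap on opposite strands, so their reads in the overlap cannot be told apart if strand was not used.

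**Figure D4:**
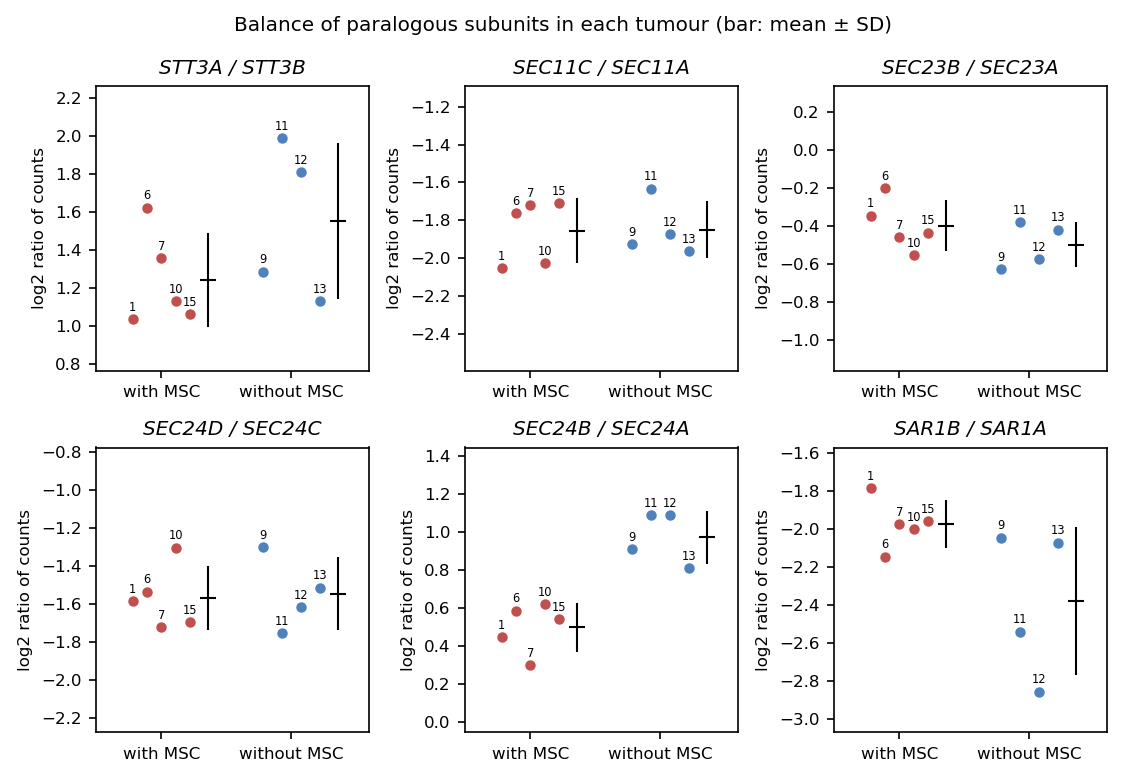
Log2 ratio of the counts of 6 paralog pairs in each tumour, tumours with MSC left of those without MSC. Numbered points are tumours and bars are group means ± SD. The SEC24B to SEC24A ratio lies between 0.30 and 0.62 with MSC and between 0.81 and 1.09 without MSC, and the other pairs overlap.

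Per length, members of a complex differed far more among themselves than between the groups. CPM per kilobase of a reference transcript (GENCODE 29, which need not be the authors' annotation) was highest for SEC61G, at 450.3 with MSC and 592.5 without MSC, and for SRP14, at 403.5 with MSC and 471 without MSC. The pore subunit SEC61A1 stood at 43.6 CPM per kilobase with MSC and 31.9 without MSC. DAD1 stood at 295 CPM per kilobase with MSC and 297 without MSC, above STT3A at 20.4 with MSC and 16.1 without MSC and STT3B at 9.31 with MSC and 6.12 without MSC. Among the cargo adaptors the order was SEC24C (21.97 with MSC and 24.7 without MSC), SEC24D (8.31 and 9.43), SEC24B (4.99 and 5.94) and SEC24A (2.86 and 2.45), the same in both groups. SAR1A, at 29.1 CPM per kilobase with MSC and 31.7 without MSC, exceeded SAR1B, at 6.62 with MSC and 5.57 without MSC. SEC61G, SRP14, SEC61B, SRP9 and DAD1 were the highest of the 45 genes on this scale in both groups.

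**Figure D5:**
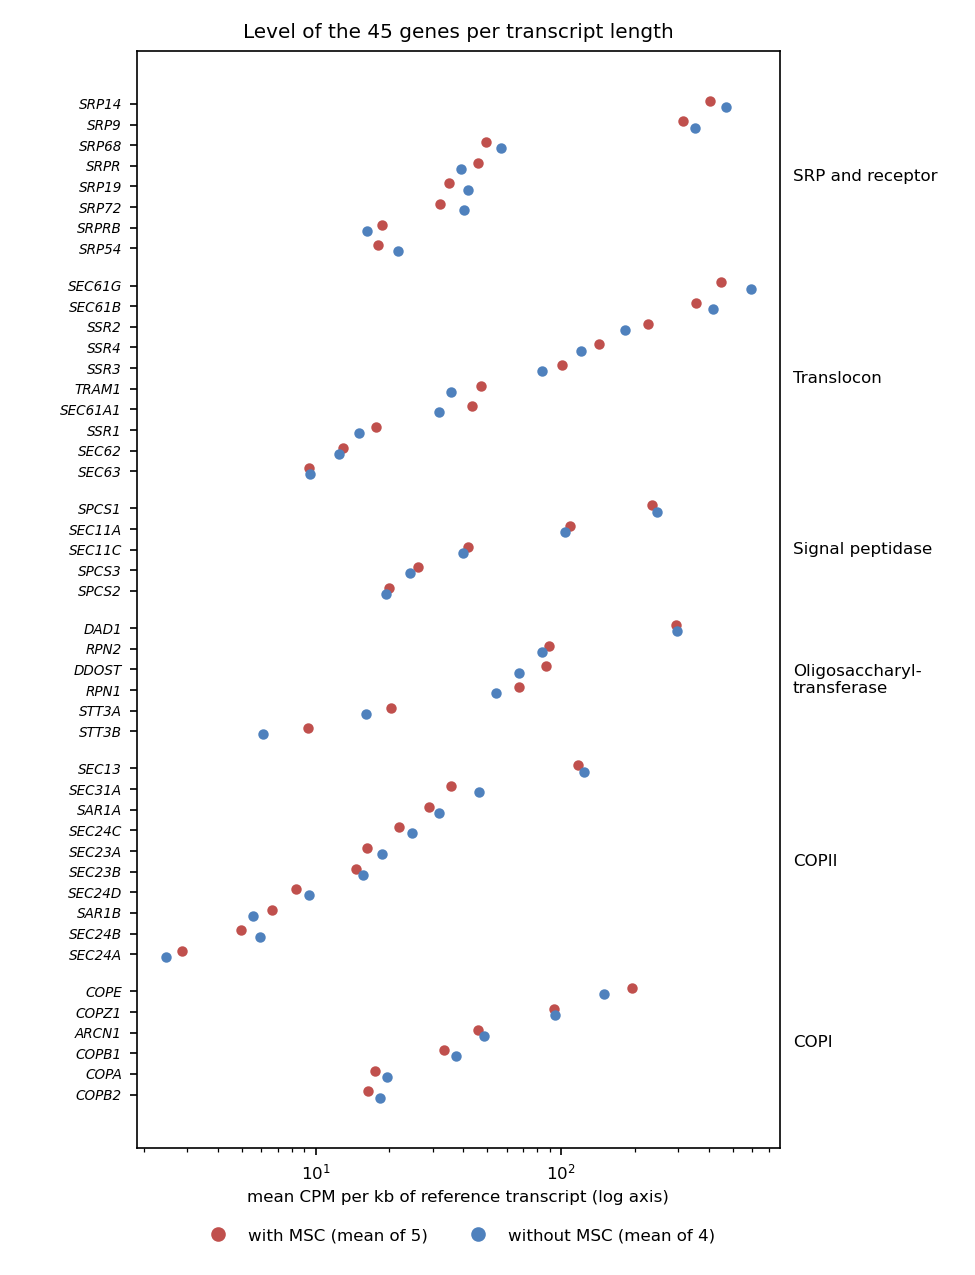
Mean CPM per kilobase of reference transcript for the 45 genes on a log axis, by complex, with MSC above without MSC. Levels run from 2.86 with MSC and 2.45 without MSC for SEC24A to 450.3 with MSC and 592.5 without MSC for SEC61G.

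The steps on either side of these complexes were looked at with 8 lists of 95 other genes, of which 95 were tested. With MSC, 10 were called higher (10.5%, against 4.18% of all tested genes) and 2 lower (against 3.6% of all tested genes). Positive changes numbered 66 (69.5%, against 51.1% of all tested genes) and negative ones 29, and the median log2 change was 0.13. The lists were chosen with earlier results of these data known, so these shares are a description and no test of the lists. ALG3, an ER mannosyltransferase that builds the sugar tree on dolichol, averaged 63.4 ± 2.52 CPM with MSC and 41.6 ± 6.27 CPM without MSC (log2 change 0.61 ± 0.11 SE, edgeR adjusted p 0.00483). It was called in 20 of 20 alternatives. DPAGT1, which adds the first sugar of that tree, averaged 42.6 ± 2.99 CPM with MSC and 32.4 ± 3.28 CPM without MSC (log2 change 0.40, edgeR adjusted p 0.0347). It was called in 10 of 20 alternatives, in 3 of the 9 that left out 1 tumour (0.0649 to 0.133 in the others, without tumour 1, 6, 7, 10, 9 or 12), and with GC and length offsets its change was 0.21 (adjusted p 0.216). These were 2 of 23 genes of sugar assembly (8.7%, against 4.18% of all tested genes), of which 16 had positive changes.

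Of 9 genes that process the glycan after transfer, 8 had positive changes, against 51.1% of all tested genes. In this list 2 were called higher, against 4.18% of all tested genes. PRKCSH, the beta subunit of glucosidase II, had 179, 201, 170.3, 222 and 172 CPM in tumours 1, 6, 7, 10 and 15 with MSC, against 95.3, 142, 80.9 and 139 CPM in tumours 9, 11, 12 and 13 without MSC. Every tumour with MSC was above every tumour without. Its log2 change was 0.72 ± 0.15 (SE) with an edgeR adjusted p of 0.0078, and it too was called in 20 of 20 alternatives. EDEM1, which marks misfolded glycoproteins for degradation, averaged 43.9 ± 5.38 CPM with MSC and 32.4 ± 4.54 CPM without MSC (log2 change 0.44, edgeR adjusted p 0.036). It was called in 12 of 20 alternatives, and lost without tumour 1, 10, 15, 9, 11 or 12 (0.0618 to 0.129).

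Of 6 further subunits of the oligosaccharyltransferase, 1 was called higher and 1 lower, against 4.18% and 3.6% of all tested genes. TUSC3, a thioredoxin-like subunit of the STT3B form, averaged 31.0 ± 2.68 CPM with MSC and 22.1 ± 2.45 CPM without MSC (log2 change 0.49 ± 0.12 SE, edgeR adjusted p 0.0198), and was called in 16 of 20 alternatives, losing the call without tumour 10, 11 or 12 (0.0558, 0.0524 and 0.0648). OSTC, a subunit of the STT3A form, averaged 216 ± 19.4 CPM with MSC and 272 ± 15.7 CPM without MSC (log2 change -0.33 ± 0.10 SE, edgeR adjusted p 0.0466), and was called in 5 of 20 alternatives and in 0 of the 9 that left out 1 tumour (edgeR adjusted p 0.0528 to 0.164). With GC and length offsets its change was -0.20 (adjusted p 0.259).

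Among 22 genes of COPII assembly and cargo receptors, 3 were called higher (13.6%, against 4.18% of all tested genes). TMED9, a p24 cargo receptor, had 280.1, 305, 258.5, 272.5 and 275 CPM with MSC, against 142, 211, 148 and 224 CPM without MSC. The groups did not overlap, and the log2 change was 0.62 ± 0.13 (SE) with an edgeR adjusted p of 0.00865. Its relative TMED7 averaged 67.1 ± 5.67 CPM with MSC and 45.6 ± 6.85 CPM without MSC (edgeR adjusted p 0.00853). ERGIC1, a membrane protein that cycles between ER and Golgi, averaged 168 ± 23.4 CPM with MSC and 114 ± 15.1 CPM without MSC (log2 change 0.56, edgeR adjusted p 0.00865). ERGIC1 and TMED9 lost their calls without tumour 12 (0.053 and 0.0549).

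TRAM2, a relative of TRAM1, averaged 72.3 ± 10.6 CPM with MSC and 48.5 ± 9.37 CPM without MSC (log2 change 0.58 ± 0.13 SE, edgeR adjusted p 0.0139). It was the 1 gene called among 4 other translocon genes, against 4.18% of all tested genes called higher. Its call was lost without tumour 9 or 12 (0.051 and 0.0606). The ER membrane complex inserts some membrane proteins. EMC10, listed as C19orf63, was the single gene called among 10 of this complex, against 4.18% of all tested genes called higher. EMC10 averaged 45.8 ± 3.76 CPM with MSC and 31.6 ± 9.59 CPM without MSC (log2 change 0.54, edgeR adjusted p 0.0347). It was called in 9 of 20 alternatives and in 1 of the 9 that left out 1 tumour, without tumour 13 (0.000861, against 0.056 to 0.136 in the others). With GC and length offsets the change of C19orf63 was 0.33 (adjusted p 0.169). Of 7 genes that insert tail-anchored proteins, 0 were called by edgeR (smallest adjusted p 0.0713), against 7.78% of all tested genes called either way. Of 14 other COPI subunits and regulators, 1 was called lower and 0 higher, against 3.6% and 4.18% of all tested genes, and 10 had positive changes. The gene called lower was COPG2, a gamma subunit. COPG2 averaged 24.7 ± 3.88 CPM with MSC, against 36.5 ± 9.43 CPM without MSC (log2 change -0.56 ± 0.15 SE, edgeR adjusted p 0.0327). The COPG2 call was lost in 6 of the 9 fits that left out 1 tumour, without tumour 1, 7, 10, 15, 11 or 12 (0.0625 to 0.143), with limma-voom (0.0731) and with GC and length offsets (0.0591).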

How the data were processed

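RNA on EGFP-L10a ribosomes was sequenced from 9 xenograft tumours of separate mice, 5 with MSC and 4 without, per the labels' protocols. The deposited values are whole-number counts per gene symbol and were not normalized by the authors. Per the submitters' processing notes, HTSeq, TopHat 1.4.0, CASAVA 1.8.1 and build hg19 were used. The sources used here give neither the annotation, nor the strand setting, nor any removal of mouse reads. Conserved mouse genes can thus add to a count. Reads shared by overlapping genes can be set aside as ambiguous, which lowers a count, or be given to either gene. Ambiguous reads came to 754568 to 1928296 per tumour. Lines that name no gene took 10.2 to 12.1% of counts and stayed out of library sizes and tests. Within a group, the least chi-square per degree of freedom between 2 libraries was 24, so no libraries agree within sampling noise.

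Counts were fitted with edgeR 4.0.16 in R 4.3.3 (filterByExpr, TMM factors, glmQLFit with robust=TRUE), with Benjamini-Hochberg adjustment over 13458 genes and a threshold of 0.05. SE was taken as the absolute log2 change over the square root of F. CPM uses TMM library sizes. Paralog ratios were compared by exact two-sided permutation. Member counts ran from 361 to 41113 per tumour. On simulated counts the fit recovered 4 of 51 genes set to differ 1.25-fold, 28 of 54 at 1.5-fold and 41 of 53 at 2-fold. Far fewer genes were set to differ there than the 1047 called here, and they were drawn at any expression level. The rates therefore do not give the power for the members.

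The members and lists were chosen with earlier results of these data known. Named genes were the called members and, per complex, the 2 members of smallest p and the one of largest p. Others were named after their values were seen. Of the pathway lists, the called genes were named. Reference lengths, GC content and exon overlaps came from GENCODE 29, where exons of 16 members overlap another protein-coding gene and 11 members have named pseudogenes, and promoters came from RefSeq. Alternatives were other scalings, filters and tools (DESeq2 1.42.0, limma-voom 3.58.1), thinning, GC and length offsets, and leaving out tumours.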

Additional observations from a re-analysis of the deposited data

Results flagged for a closer look

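Of 90 groups of values (45 genes in each of the 2 groups), 6 held a tumour farther from the rest of its group than a Dixon test at the 95% level allows. Chance flags about 1 group in 20, and 6 of 90 is near that. With MSC, SRPR in tumour 1 was low at 130.6 CPM, against 141 CPM in the next tumour of that group, and RPN1 in tumour 6 was high at 189.7 CPM, against 153.5 CPM in the next. Without MSC, SRPRB was low in tumour 9 at 40.7 CPM (next 46.9 CPM) and COPZ1 was high in tumour 9 at 194.8 CPM (next 174.3 CPM). SEC63 was high in tumour 12 without MSC at 69.4 CPM (next 58.9 CPM), and SEC24D was low in tumour 13 without MSC at 33.3 CPM (next 38.9 CPM). None of these genes was called between the groups by edgeR.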

How the results depend on the processing

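Calls depended on the fit more than directions did. Over all genes, 563 were higher and 484 lower with MSC; DESeq2 gave 859 and 778, GC and length offsets 343 higher, limma-voom with quality weights 289 lower, leaving out tumours 15 and 12 together 201 and 101, and leaving out 1 tumour each 151 to 985 higher and 94 to 863 lower. Of the members, 3 were higher and 1 lower; library size scaling gave 1 and 2, a filter of at least 5 CPM in 4 libraries 6 and 2, DESeq2 6 and 3, tumours 15 and 12 left out 0 and 0, and 1 tumour left out 0 to 7 and 0 to 3. Translocon genes higher (2 as reported) numbered 0 with library size scaling or without tumours 15 and 12, 1 with limma-voom, robust=FALSE or GC offsets, and 0 to 3 with 1 tumour left out. Oligosaccharyltransferase genes higher (1) numbered 2 with DESeq2 size factors, upper-quartile factors or robust=FALSE, 3 with the 5 CPM filter or DESeq2, 0 without tumours 15 and 12, and 0 to 3 with 1 tumour left out. In COPI, 1 was higher with the 5 CPM filter or DESeq2, and 0 to 1 with 1 tumour left out. Of the other pathway genes, 10 higher became 16 with DESeq2, 4 without tumours 15 and 12, and 3 to 22 with 1 tumour left out, and 2 lower became 1 with no filter, robust=FALSE, thinning or GC offsets, 0 with limma-voom or without tumours 15 and 12, and 0 to 3 with 1 tumour left out.

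Signs turned only for log2 changes near 0, none of them called. SEC63 was 0.044 with limma-voom, 0.046 without tumours 15 and 12, and -0.050 to 0.052 with 1 tumour left out. SPCS1 was 0.0027 without tumours 15 and 12. DAD1 was 0.016 with GC offsets and -0.045 to 0.046 with 1 tumour left out. COPZ1 was 0.038 with GC offsets, 0.019 without tumours 15 and 12, and -0.042 to 0.035 with 1 tumour left out. With 1 tumour left out, SPCS2 ranged from -0.027 to 0.069, SEC11C from -0.0043 to 0.10, SEC13 from -0.15 to 0.014, the SEC11C to SEC11A log2 ratio difference from -0.044 to 0.066 and that of SEC24D to SEC24C from -0.092 to 0.059. The SEC24B to SEC24A difference stayed at -0.53 to -0.42. The median change of all genes moved between -0.05 and 0.04. The cause of these shifts was not tested. SEC31A was called in 16 of 20 alternatives, TRAM1 and DDOST in 10 and SEC61A1 in 8. Of the members not called as reported, STT3B passed most often, in 8 of 20. No paired analysis was possible because the groups share no tumour numbers. Most small changes are missed with 5 and 4 tumours.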
